A study of Mus musculus with 4 samples.

Results

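The oestrogen, progesterone and corticosteroid receptors, the membrane oestrogen receptor and a pair of oestrogen-induced genes were followed here in mouse embryonic fibroblasts (MEFs) with and without an intact Phf2 gene. The set held 8 genes, which were all 8 rows of the raw count table carrying the symbols Esr1, Esr2, Pgr, Greb1, Nrip1, Nr3c1, Nr3c2 or Gper1, out of 24391 rows. Phf2 encodes a chromatin reader that binds methylated histone H3 at active promoters. All 4 RNA-seq libraries came from primary MEFs of E13.5 embryos with the genotype Phf2 flox/flox, ERCre/+, in which a tamoxifen-activated Cre recombinase (CreERT2) is made from the Rosa26 locus. The 2 wild-type (WT) libraries were labelled as without tamoxifen, and the 2 Phf2 KO libraries as treated with it. The protocol given with all libraries described confluent cells held quiescent in medium with 2% charcoal-treated serum for 7 days, with 4-hydroxytamoxifen (4-OHT) at 0.5 µM. Which vehicle the WT cells had received was not given in the sources used here. No arm with 4-OHT and unfloxed Phf2 was among the libraries, so that loss of Phf2, Cre activity and 4-OHT cannot be told apart, and the difference between the 2 groups is the difference of all 3 together. The study names the 2 libraries of a group biological replicates, and they differed in sex by their Xist counts, so that the spread within a group includes a difference between embryos.

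Steroid receptors are transcription factors that are switched on by a hormone. In the absence of ligand they are held by chaperones, and with ligand they bind short palindromic DNA elements, the oestrogen response element (ERE) or the shared progesterone and glucocorticoid response element (PRE/GRE), and recruit coactivators or corepressors. Pgr and Greb1 are classical targets of the oestrogen receptor in breast and uterus, and Nrip1 (RIP140) is both a target and a corepressor of it. 4-OHT is itself a ligand of the oestrogen receptors, with antagonist or partial agonist action that depends on the tissue, and the serum in the protocol was charcoal-treated, a step that lowers its steroid content. CreERT2 carries the ligand-binding domain of the human oestrogen receptor alpha, so that reads of the transgene, where they aligned to mouse Esr1, would be counted there; their share was not tested.

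The 8 genes were chosen with the KO to WT difference known, so their values in that comparison are given as a description without a test. Neither the SE nor the counting intervals printed with them are read as tests of that difference. Values are read counts, and CPM, the counts scaled for sequencing depth and library composition. Assigned reads ranged from 21094743 to 26094268 per library. A count of 3, used as the floor of detection, stood for 0.116 to 0.145 CPM. Phf2 itself, the targeted gene, had counts of 3244 and 3680 in WT and 1454 and 2158 in the KO, with mean CPM of 138 ± 5.11 and 79.9 ± 13.8 (SD, n = 2), so that the KO libraries kept 57.9% of the WT level (log2 fold change -0.79, SE 0.14). Its adjusted p was 0.999 by edgeR, with an unadjusted p of 0.00332, and 0.00384 by DESeq2. The counts cover the whole gene, so that reads from exons outside the floxed part are included. Among the marker lists read, the 12 fibroblast markers, which include collagens, had the highest summed CPM in every library, between 57660 and 69350. The 11 epithelial markers summed to between 0.531 and 1.497 CPM, and 1 of them, Krt18 at 5 to 15 counts, passed the filter on low counts. The libraries numbered 1 and 2 differed in sex, since Xist had 10042 and 8336 counts in the replicate 1 libraries against 3 and 12 in the replicate 2 libraries. The 14 macrophage markers together reached 3764 (WT) and 4340 (KO) CPM in replicate 1 and 837 (WT) and 1318 (KO) CPM in replicate 2, and the same-numbered libraries are therefore also compared with each other below.

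Pgr, the progesterone receptor, was the lowest of the set in the KO relative to WT. It had 133 and 154 counts in the WT libraries and 24 and 7 counts in the KO libraries. Mean CPM was 5.72 ± 0.295 in WT and 0.724 ± 0.613 in the KO (SD, n = 2), which is 12.7% of WT. The groups did not overlap, but the KO libraries differed from each other: the KO level was 20.99% of WT in replicate 1 and 4.91% in replicate 2. The fitted log2 fold change was -3.00 (SE 0.61), the 7th lowest among the 13668 genes tested. It was -4.28 without KO replicate 1 and -2.30 without KO replicate 2.

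Greb1, an oestrogen-induced growth regulator that binds the oestrogen receptor, was the next lowest, with 397 and 334 counts in WT and 122 and 154 in the KO. Its mean CPM was 14.7 ± 2.54 in WT and 6.14 ± 0.366 in the KO (SD, n = 2), or 41.9% of WT. Both KO libraries lay below both WT libraries, and the log2 fold change was -1.25 (SE 0.19). Within replicate 1 the log2 ratio of KO to WT was -1.48 (95% interval -1.79 to -1.19), and within replicate 2 it was -1.01 (-1.29 to -0.73). These exact intervals cover counting error only.

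Esr1, which encodes the oestrogen receptor alpha, was also lower in the KO. It had 232 and 228 counts in WT and 105 and 152 in the KO, and mean CPM of 9.20 ± 0.593 and 5.69 ± 0.887 (SD, n = 2). The KO level was 61.9% of the WT level on average, 52.6% in replicate 1 and 72.0% in replicate 2, with a log2 fold change of -0.69 (SE 0.19). The groups did not overlap. For Nrip1, 701 and 742 counts in WT stood against 521 and 545 in the KO, at 28.8 ± 0.345 and 23.9 ± 1.75 CPM (SD, n = 2). The KO level of Nrip1 was 82.9% of WT, a small difference in the same direction (log2 fold change -0.27, SE 0.11), again without overlap.

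Esr2, which encodes the oestrogen receptor beta, stood the other way but at the edge of detection. It had 3 and 2 counts in WT, at or below the floor, and 9 and 12 in the KO. The log2 ratio of KO to WT was 1.80 (95% counting interval -0.20 to 4.33) in replicate 1 and 2.70 (0.53 to 5.90) in replicate 2, so that the interval in replicate 1 included no difference. The gene passed the filter on low counts through its KO libraries, since both WT libraries were under the limit. The membrane oestrogen receptor Gper1, a G protein-coupled receptor, had 8 and 33 counts in WT and 16 and 55 in the KO. The KO level of Gper1 was higher within each replicate number, 2.33 times WT in replicate 1 and 1.80 times WT in replicate 2, but the 2 groups overlapped because the replicate numbers differed more. Its log2 fold change was 0.93 (SE 0.82), and it moved between -0.06 without KO replicate 2 and 2.18 without WT replicate 2.

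The corticosteroid receptors differed little. Nr3c1, the glucocorticoid receptor, had 2016 and 2173 counts in WT and 1597 and 2100 in the KO, at 83.7 ± 0.0728 and 82.2 ± 7.26 CPM (SD, n = 2). Its log2 ratio was -0.12 (95% counting interval -0.21 to -0.02) in replicate 1 and 0.06 (-0.03 to 0.15) in replicate 2, opposite in sign, and the groups overlapped. Nr3c2, the mineralocorticoid receptor, had 21 and 20 counts in WT and 16 and 18 in the KO, with overlapping CPM of 0.821 ± 0.071 and 0.760 ± 0.0166 (SD, n = 2). At this depth its counting interval in replicate 1 ran from -1.21 to 0.83 on the log2 scale, so that a difference of that size in either direction was not detectable.

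**Figure D1:**
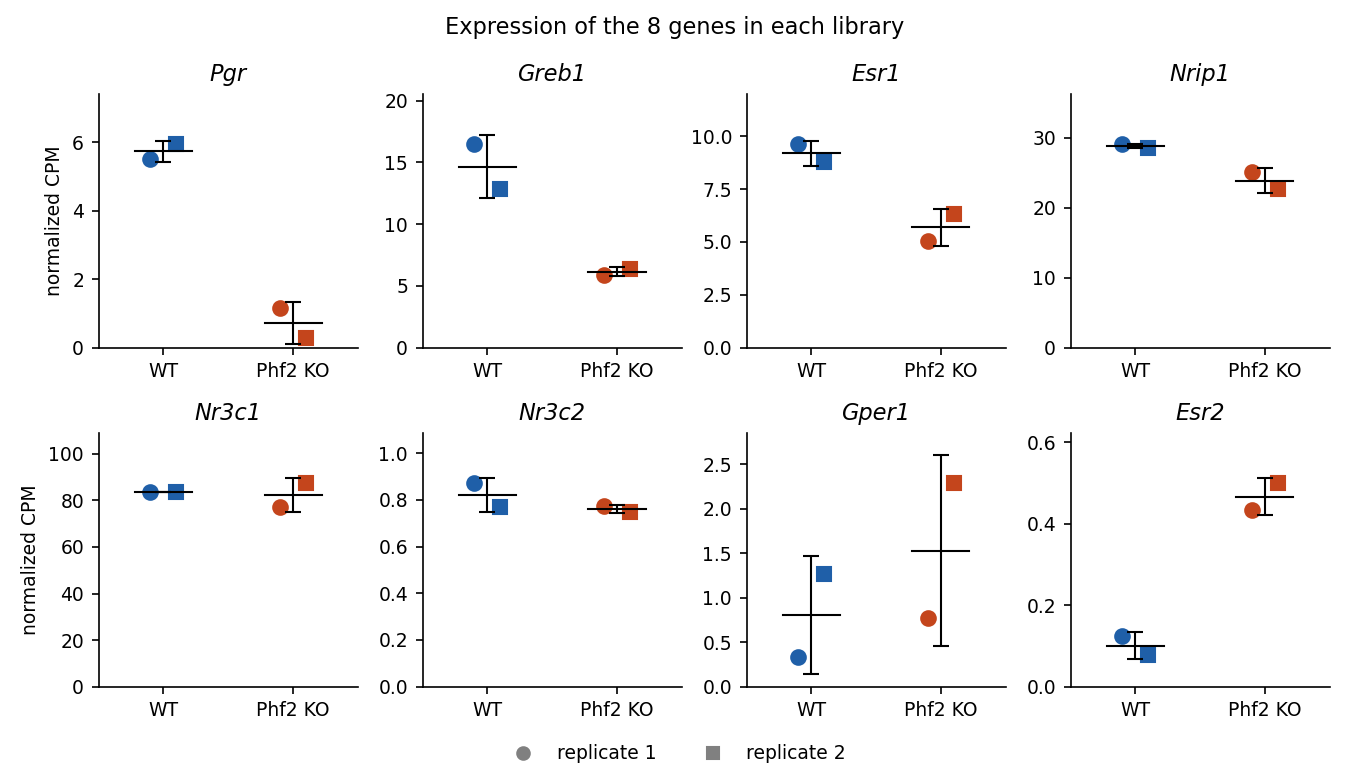
Normalized CPM (linear axis from 0, a separate scale for each gene) of the 8 genes in each of the 4 libraries. Circles are replicate 1 and squares replicate 2, WT in blue and Phf2 KO in red, with lines and bars for the mean ± SD (n = 2). Pgr, Greb1, Esr1 and Nrip1 lie lower in both KO libraries than in both WT libraries, Esr2 lies higher, and Nr3c1, Nr3c2 and Gper1 overlap.

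Of the 8 genes, 4 (Pgr, Greb1, Esr1 and Nrip1) had both KO libraries below both WT libraries, as did 18.0% of all genes tested, and 1 (Esr2) had both KO libraries above, as did 15.5% of all genes tested. Because the genes were chosen from this contrast, nothing is read from these counts. All 8 passed the filter on low counts. Over all 13668 genes the test of genotype (edgeR quasi-likelihood, adjusted p under 0.1) called 0 genes higher and 1 gene lower, or 0.00732% of those tested. The called gene was Dkk2, a secreted Wnt modulator chosen here after its values were seen, with 977 and 1137 counts in WT and 131 and 162 in the KO (log2 fold change -2.69, SE 0.11, adjusted p = 0.0843). Leaving out any 1 of the 4 libraries gave 0 calls. At an unadjusted p under 0.05, 211 genes (1.54%) were higher and 365 (2.67%) lower. DESeq2 called 66 genes, 10 higher and 56 lower.

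**Figure D2:**
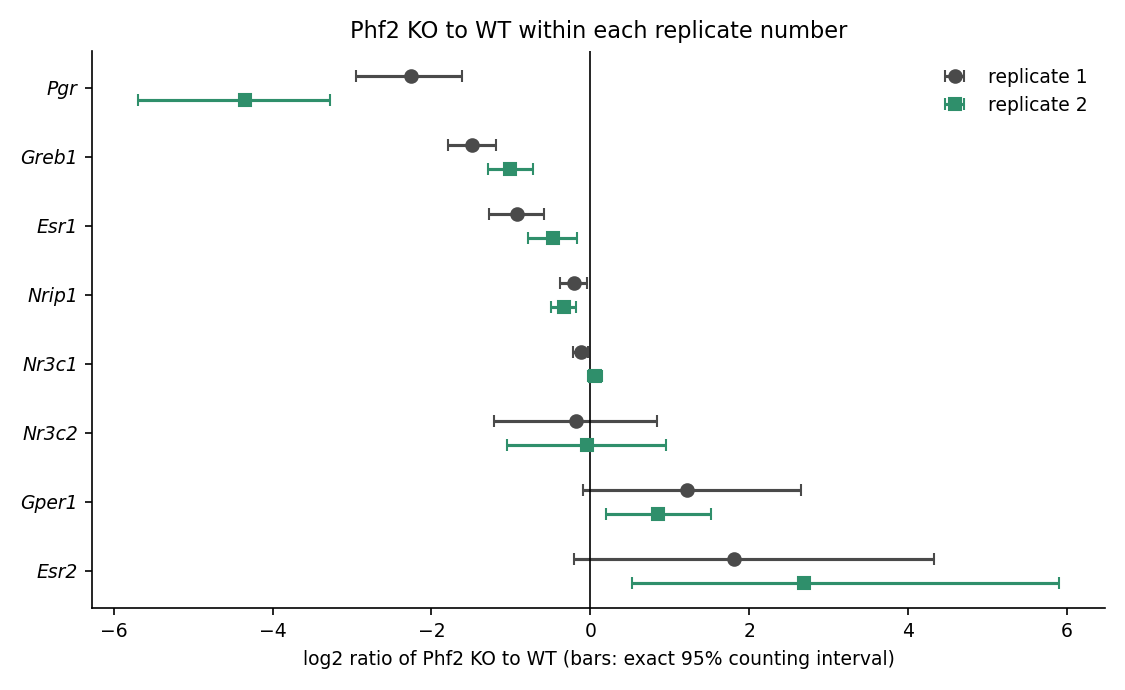
Log2 ratio of normalized CPM in Phf2 KO to WT within replicate 1 (grey circles) and replicate 2 (green squares) for each of the 8 genes, with 1 library per group and number. Bars are exact 95% counting intervals. Pgr, Greb1, Esr1 and Nrip1 lie left of 0 in both numbers, and Nr3c1 lies on either side of 0. The intervals of Nr3c2, of Nr3c1 in replicate 2, and of Gper1 and Esr2 in replicate 1 include 0.

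Levels were also compared between the genes, as CPM per kilobase of merged exons, a division by the length of all annotated exons together. In WT, Nr3c1 was the most abundant, at 11.3 ± 0.00981 CPM per kb (SD, n = 2 here and in the next sentences), followed by Nrip1 at 2.52 ± 0.0301 and Greb1 at 1.53 ± 0.266. Pgr stood at 1.20 ± 0.0617 and Esr1 at 0.673 ± 0.0433 CPM per kb. Gper1 (0.316 ± 0.262) and Nr3c2 (0.127 ± 0.011) overlapped, and Esr2 was last at 0.0299 ± 0.00994 CPM per kb. By this measure the glucocorticoid receptor was the most abundant steroid receptor of the set in WT. Pgr exceeded Esr1 per kb, and Esr2 had the fewest reads for its length. The order of Pgr and Esr1 depends on the length used, 4776 bases for Pgr and 13678 for Esr1. In CPM without division by length, Esr1 (9.20) was above Pgr (5.72) in WT.

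In the KO the order below Nrip1 was different. Nr3c1 (11.1 ± 0.978 CPM per kb) and Nrip1 (2.09 ± 0.153) still led, and Greb1 (0.642 ± 0.0382), Gper1 (0.603 ± 0.422) and Esr1 (0.416 ± 0.0648) followed, with Gper1 overlapping both of its neighbours. Pgr, above Esr1 per kb in WT, was below it in the KO at 0.152 ± 0.128 CPM per kb. In CPM without division by length, Pgr was below Esr1 in both groups. The KO libraries of Pgr, at 0.0609 and 0.242 CPM per kb, spanned both Esr2 at 0.139 ± 0.0136 and Nr3c2 at 0.117 ± 0.00257. Gper1, below Esr1 per kb in WT, overlapped it per kb in the KO, and in CPM it was below Esr1 in both groups.

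The difference between the replicate numbers had no part in the choice of the genes, and it was tested over all genes with genotype in the model. Whether the WT and KO libraries of a number share an embryo was not stated. If they do, the contrast sets 1 embryo against 1. The p-values would then measure spread between libraries, not between embryos. Gper1 was called (edgeR quasi-likelihood, adjusted p = 1.99e-05), the 1 call among 8, where 26.2% of all genes tested were called, 13.6% higher in replicate 1 and 12.6% higher in replicate 2. Its level was 0.552 CPM on average in replicate 1 and 1.78 CPM in replicate 2, a log2 difference of -1.70 (SE 0.35), with log2 differences of -1.94 in WT and -1.57 in the KO. DESeq2 did not make this call (adjusted p = 0.148). Of the 8 smooth muscle markers, 7 were called higher in replicate 2 and 1, Des, higher in replicate 1, with the CPM of all 8 summing to 1099 (WT) and 1163 (KO) in replicate 1 against 1782 (WT) and 1553 (KO) in replicate 2. All 14 macrophage markers moved the other way, and sex differed as well; the part of each in the Gper1 difference was not tested. The other 7 genes had log2 differences between -0.09 and 0.23 and adjusted p from 0.478 to 0.991 (edgeR quasi-likelihood). For Esr1 the log2 difference between replicates 1 and 2 was -0.06 (SE 0.16), with 0.13 in WT and -0.32 in the KO. For Greb1 it was 0.17 (SE 0.14).

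Regulatory sequence at the genes was then read for response elements. The full ERE, which is the arm GGTCA and the arm TGACC with any 3 bases between them, was searched without mismatch on both strands within 10000 bases on either side of each gene's start in the mm9 genome. It was present at 304 of 13258 genes tested and placed on the genome (2.29%) and at 1 of the 8, Nrip1. It is shown here because it is the only full element found in these windows. The match lies in an intron of Nrip1, 135 bases into the gene, at chr16:76373931-76373943 (mm9, minus strand). In the sequence below, the element is in capitals.

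Nrip1 ERE: agcatggGGTCAAAATGACCtagagtt

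The PRE/GRE (arms GNACA and TGTNC with any 3 bases between them, both strands) was present in such windows at 28.6% of genes and at 2 of the 8, Greb1 and Gper1. With 1 mismatch allowed the ERE was present at 46.8% of genes and at 1 of the 8, again Nrip1. No match says only that these letters were not in these windows.

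RefSeq promoters (GRCm38.p6, 250 bases before to 50 bases after a start) were given for 7 of the 8 genes, 10 promoters in all; no sequence of Nr3c1 was used. This is another build than the mm9 of the counts, and coordinates of the 2 are not interchangeable. None of the 10 held the full ERE, which 0.00775% of the 12904 promoters searched held, and none held the PRE/GRE (0.31%), its single arm TGTTCT (12.3%) or the AP-1 motif TGANTCA (5.18%). The single ERE arm GGTCA, in either orientation, was in 6 of 10 (37.7% of all promoters), and the GC box GGGCGG was in 4 of 10 (62.0%). The 3 promoters below belong to the genes with the lowest KO to WT ratios and are written 5′ to 3′ on the gene's strand, with the ERE arm in capitals where present. For Greb1 and Esr1 the more upstream of 2 listed starts is shown.

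Pgr promoter, chr9:8899583-8899882, plus strand: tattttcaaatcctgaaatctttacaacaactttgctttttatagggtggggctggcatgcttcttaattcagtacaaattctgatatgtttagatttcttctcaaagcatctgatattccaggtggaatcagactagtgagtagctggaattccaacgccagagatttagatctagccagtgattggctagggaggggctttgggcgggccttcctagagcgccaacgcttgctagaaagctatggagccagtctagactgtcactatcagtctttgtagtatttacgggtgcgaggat
Greb1 promoter, chr12:16800837-16801136, minus strand: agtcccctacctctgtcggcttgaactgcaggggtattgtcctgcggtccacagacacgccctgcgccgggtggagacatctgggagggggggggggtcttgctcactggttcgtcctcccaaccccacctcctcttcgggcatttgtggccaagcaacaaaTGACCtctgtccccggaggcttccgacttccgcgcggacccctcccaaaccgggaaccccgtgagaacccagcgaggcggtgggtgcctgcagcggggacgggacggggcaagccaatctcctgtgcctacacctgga
Esr1 promoter, chr10:4611739-4612038, plus strand: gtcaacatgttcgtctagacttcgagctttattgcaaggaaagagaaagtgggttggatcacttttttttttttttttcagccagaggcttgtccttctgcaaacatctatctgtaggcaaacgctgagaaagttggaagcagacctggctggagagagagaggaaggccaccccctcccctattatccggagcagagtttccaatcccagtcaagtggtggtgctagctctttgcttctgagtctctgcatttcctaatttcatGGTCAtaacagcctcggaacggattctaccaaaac

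The Greb1 and Esr1 promoters each held 1 ERE arm, in opposite orientation, and the Pgr promoter held none but had 1 GC box. No relation of these matches to the KO to WT difference was tested.

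The wider pathway was read from 7 lists of genes, which did not include the 8 genes above. Of 34 oestrogen-responsive genes tested, 0 were called higher or lower by edgeR at an adjusted p under 0.1, and the median log2 fold change was 0.02, against 0.01 over all genes tested. The same test called 0.00732% of all genes tested. At that share a list of this size would rarely hold a call, so nothing is read from 0 calls in this list or any list below. Counts from a fit with a replicate block differed and are given further on. The most abundant of them were Ctsd, the lysosomal protease cathepsin D, and the chemokine Cxcl12. Ctsd had 134841 and 80180 counts in WT and 138285 and 91594 in the KO (log2 fold change 0.27, SE 0.40), and Cxcl12 had 8947 and 17143 in WT and 10492 and 20110 in the KO (0.38, SE 0.37). For both, the replicate numbers differed more than the genotypes. A log2 ratio beyond 0.5 in the same direction within both replicate numbers was met by 1 of the 30 oestrogen-responsive genes whose counts averaged 50 or more, the immediate-early transcription factor Fos, with 468 and 423 counts in WT and 583 and 612 in the KO (log2 fold change 0.59, SE 0.14, unadjusted p = 0.00974, edgeR adjusted p = 0.999). Among the 11556 genes whose counts averaged 50 or more, 0.485% were above and 1.13% below this size. Of the 34 oestrogen-responsive genes tested, 19 had a log2 fold change above 0, so the list went in both directions. Both KO libraries lay above both WT libraries for 3 of them, as for 15.5% of all genes tested. They lay below for 8, as for 18.0% of all genes tested.

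Of 15 progesterone-responsive genes tested, 0 were called, the median was 0.00 on the log2 scale (0.00415), and of the 13 whose counts averaged 50 or more none was beyond 0.5 in both numbers. The most abundant were the cytokine receptor subunit Il6st (log2 fold change -0.21, SE 0.12) and the transcription factor Stat3 (log2 fold change 0.00415). The homeobox gene Hoxa11, named after its values were seen, was the only one with an unadjusted p under 0.05 (0.0366), with 52 and 57 counts in WT and 29 and 28 in the KO, a log2 fold change of -0.76 at a mean count below 50. Of 21 glucocorticoid-responsive genes tested, 0 were called by edgeR, with a median of 0.06. Dusp1, a MAP kinase phosphatase, had 900 and 1915 counts in WT and 1572 and 2648 in the KO, and its KO level was 2.03 and 1.49 times WT in replicates 1 and 2. Its log2 fold change was 0.74 (SE 0.38, edgeR adjusted p = 0.999) and ran from 0.35 to 1.30 with 1 library left out. Angptl4, an inhibitor of lipoprotein lipase, had 442 and 500 counts in WT and 159 and 200 in the KO, a log2 fold change of -1.23 (SE 0.13). It was not called by edgeR (adjusted p = 0.999) and was called lower by DESeq2 (adjusted p = 2.34e-05). Of the 19 glucocorticoid-responsive genes whose counts averaged 50 or more, 1 (Dusp1) was above 0.5 and 1 (Angptl4) below -0.5 in both replicate numbers. Among all genes with such counts these shares were 0.485% and 1.13%. Cdkn1a, the cell cycle inhibitor p21, was the most abundant gene of the list, at a log2 fold change of -0.16. Ddit4 and Klf15, chosen after their values were seen, had an unadjusted p of 0.0193 and 0.0262 with log2 fold changes of 0.32 and 0.39.

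Of the 14 related receptors tested and reported here, 0 were called by edgeR, and of the 13 whose counts averaged 50 or more none was beyond 0.5 in both replicate numbers, with a median of 0.08. The membrane-associated progesterone receptor components Pgrmc1 and Pgrmc2, the most abundant of this list, had log2 fold changes of 0.11 (SE 0.09) and 0.06 (SE 0.09).

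No gene of the machinery around the receptors was called by edgeR without a replicate block, where 0.00732% of all genes tested were called. Of 33 coregulators and 18 chaperones tested, 0 were called, and none of the 32 coregulators and 18 chaperones whose counts averaged 50 or more was beyond 0.5 in both replicate numbers, with medians of 0.01 and -0.01 (-0.0054) on the log2 scale. The helicase Ddx17, a coactivator, had a log2 fold change of 0.19 (SE 0.15), and Smarca4, the ATPase of a chromatin remodelling complex, of 0.01 (SE 0.09). The chaperones Hsp90ab1 and Hspa8, which hold unliganded receptors, had log2 fold changes of 0.01 and -0.01 (-0.00737). Of 19 genes of steroid metabolism tested, 0 were called, with a median of -0.03. Cyp1b1, which hydroxylates oestrogens, had 5674 and 6956 counts in WT and 6206 and 7809 in the KO (log2 fold change 0.31, SE 0.11, unadjusted p = 0.0399), and H6pd, which supplies cofactor to a glucocorticoid-activating enzyme, had a log2 fold change of 0.00 (0.0017). Hsd17b7, an enzyme of oestradiol and cholesterol synthesis chosen after its values were seen, had a log2 fold change of -0.32 (unadjusted p = 0.0264).

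**Figure D3:**
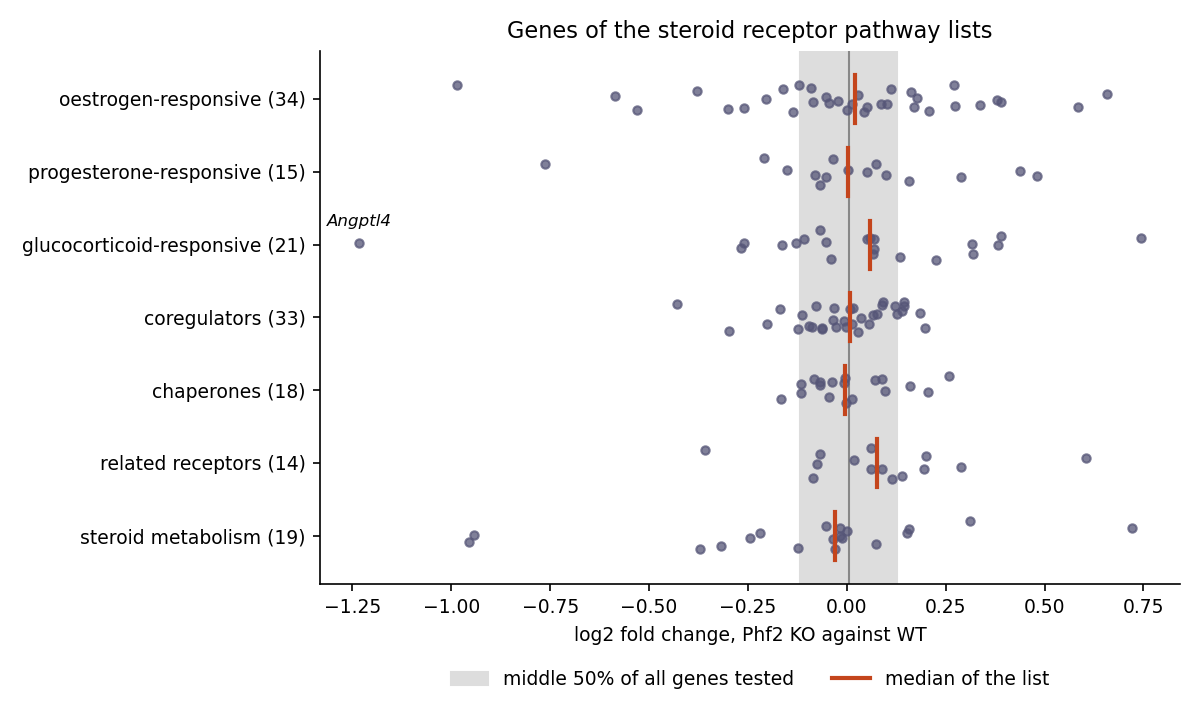
Log2 fold change (Phf2 KO against WT, all 4 libraries) of each tested gene of the 7 pathway lists, with the number of genes tested in brackets. Points are genes, red lines are medians of a list, and the grey band is the middle 50% of all 13668 genes tested, from -0.12 to 0.13. The medians lie inside the band, and the gene beyond 1 is Angptl4.

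The genes whose profile over the 4 libraries was most like that of a set gene were listed by the root-mean-square difference of centred log2 CPM, for the 4 genes of the set that spanned more than 1 on the log2 scale. The nearest to Pgr was Lgr6, a receptor for R-spondins, at a difference of 0.25, with 198 and 143 counts in WT and 28 and 10 in the KO. The urea transporter Slc14a1 (60 and 54 against 4 and 0 counts), Slitrk1 (56 and 65 against 6 and 5), the relaxin receptor Rxfp1 and Slc16a12 followed, at differences from 0.45 to 0.67. The nearest to Greb1 was Tmeff2, at 0.03, with 703 and 595 counts in WT and 210 and 263 in the KO, followed by the calcium channel gene Cacna1g, Angptl1, Lhfpl4 and Lrrc17, at 0.07 to 0.12. These genes were chosen for their likeness, and their KO to WT differences carry no further weight.

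Gper1 was nearest to Sncg (0.06), which had 8 and 36 counts in WT and 18 and 58 in the KO, and then to Hp, which encodes haptoglobin, with 348 and 970 counts in WT and 681 and 2144 in the KO, to B130006D01Rik, Tmprss7 and Dio3os. Esr2 was nearest to Tbrg3 (0.17), with 4 and 4 against 10 and 14 counts. Etohi1, Fstl4, Usp29 and Rdh9 followed, at differences up to 0.29, all at low counts. The genes nearest to Gper1 and Esr2 were also chosen for their likeness. Their differences between genotypes or replicate numbers therefore carry no further weight.

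**Figure D4:**
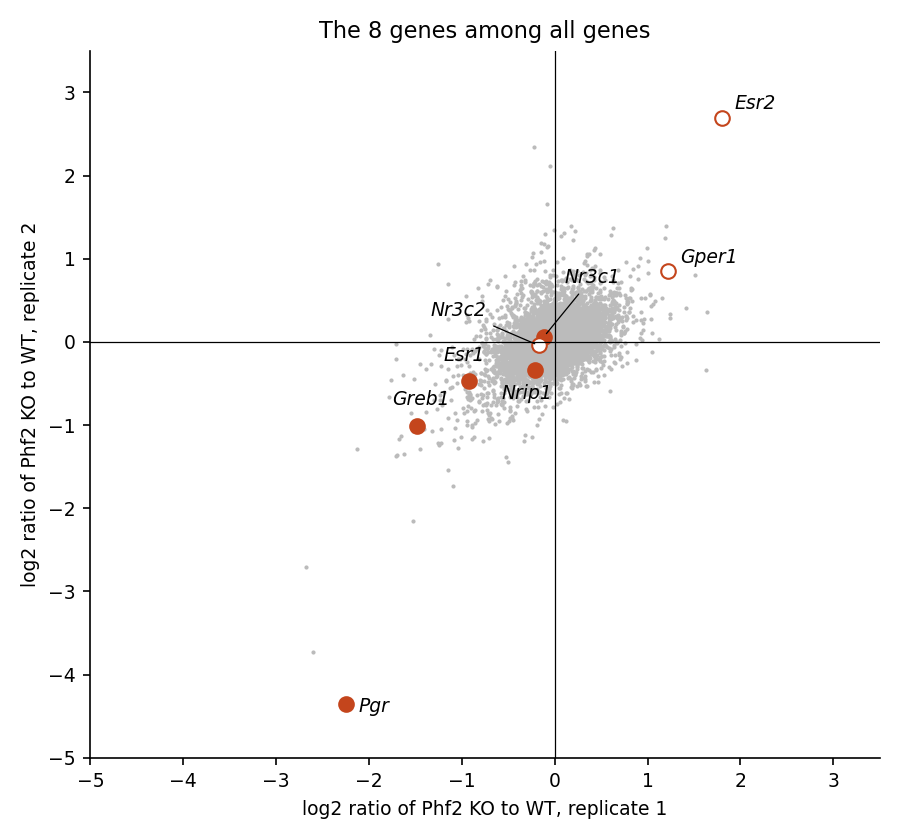
Log2 ratio of Phf2 KO to WT in replicate 1 (horizontal) and replicate 2 (vertical) of genes whose counts averaged 50 or more (grey points), with the 8 genes in red. Open circles have a mean count under 50. Pgr lies at -2.25 and -4.35, apart from nearly all grey points, which leave out genes with lower counts. Greb1 lies at -1.48 and -1.01, and Nr3c1 and Nr3c2 lie in the centre.

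The genes lie on separate chromosomes except for Esr2 and Greb1, in mm9 coordinates with GENCODE vM1 gene bounds. Esr1 spans chr10:5340927-5734948, Pgr chr9:8900419-8965425, Greb1 chr12:16677421-16807692 and Esr2 chr12:77221406-77278246. Nrip1 spans chr16:76287645-76374072, Nr3c2 chr8:79423341-79768911 and Gper1, under its older symbol Gpr30, chr5:139899105-139903754. Nr3c2 shares 247 exonic bases with Gm10649 on the opposite strand, and no other gene of the 8 shared exonic bases with another gene. Reads were counted by strand, which separates such pairs.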

How the data were processed

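RNA-seq was done on 2 WT and 2 Phf2 KO libraries. The authors sequenced single reads, trimmed them with Trim Galore, removed ribosomal RNA with bowtie2, aligned to mm9 with STAR and counted reads per gene by strand with featureCounts. The deposited values are these raw read counts per gene symbol; versions and the annotation release were not given in the sources used here. A deposited table of the authors' own DESeq2 comparison (fold changes and p-values) was not used. Counts were tested with edgeR 4.0.16 (quasi-likelihood, TMM scaling, filterByExpr, Benjamini-Hochberg adjustment over 13668 genes, two-sided), in R 4.3.3, with genotype as the only term and a threshold of 0.1. Replicate number was tested with genotype in the model, which left 1 residual degree of freedom. DESeq2 1.42.0 and limma-voom (limma 3.58.1) were alternatives, as were other scaling, no filter, a replicate block and each library left out. Ratios within a replicate number carry exact 95% binomial counting intervals. The SE of a log2 fold change is its size divided by the square root of the F value of the edgeR test. The test was checked on simulated data. Gene bounds and merged exons came from GENCODE vM1, with 22031 of 24391 symbols placed, 1344 of them by a synonym, and promoters came from RefSeq. The 4 libraries differed from each other by more than sampling noise, with a chi-square per degree of freedom of 15.3 or more for every pair. Named were the 8 genes, Phf2, list genes called, beyond a log2 ratio of 0.5 in both replicate numbers at a mean count of at least 50, the 2 most abundant genes of each list, and the 5 genes nearest in profile (prior count 2). The genes and the lists were chosen with earlier results of these data known. Some genes of the lists are not reported here and were left out of the list counts.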

Additional observations from a re-analysis of the deposited data

Results flagged for a closer look

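The log2 ratio of Phf2 KO to WT had opposite signs in the 2 replicate numbers, with counting intervals that did not include 0, for 3 of the named genes. For Stat3 it was 0.06 in replicate 1 (0.0634) and -0.05 in replicate 2 (-0.0524). For Smarca4 it was 0.07 in replicate 1 (0.071) and -0.05 in replicate 2 (-0.0495). For H6pd it was 0.10 in replicate 1 (0.095) and -0.09 in replicate 2 (-0.0868). Each ratio rests on 1 library per group, the intervals cover counting error only, and the difference between the replicate numbers was not tested.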

How the results depend on the processing

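Under the alternatives run for the 8 genes, which did not include limma-voom, some log2 fold changes kept their direction. These were Pgr (-4.28 to -2.30), Greb1 (-1.44 to -1.05), Esr1 (-0.86 to -0.54), Nrip1 (-0.35 to -0.20), Nr3c2 (-0.21 to -0.01) and Esr2 (1.85 to 2.53). Nr3c1 (-0.12 to 0.06) and Gper1 (-0.06 to 2.18) did not keep theirs. The range of Nr3c2 came near 0 and its SE in the main fit was 0.33, so that no direction is read for it. Esr2 has no value without KO replicate 2, where it did not pass the filter on low counts. Genotype calls over all genes numbered 1 by edgeR, 66 by DESeq2, 0 by limma-voom (575 genes at an unadjusted p under 0.05), 0 at an adjusted p under 0.05, and 0 with each library left out in turn (range 0 to 0, 237 to 755 at an unadjusted p under 0.05). DESeq2 called 1 glucocorticoid-responsive gene (Angptl4) and no other gene of the 7 lists as reported here. The replicate test called 3580 genes by edgeR, 1380 by DESeq2 and 1445 with genotype left out, and called 1 member gene by edgeR and 0 by DESeq2, which gave an adjusted p for 7 of the 8. It was not run with a library left out, since 3 libraries leave no residual degrees of freedom.

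Neither labels nor methods say that replicate numbers pair the libraries, though sex matched and library numbers in the labels were consecutive within a replicate number. Libraries of the same number differed less than those of the same genotype. The chi-square per degree of freedom was 19.6 (replicate 1) and 15.3 (replicate 2) within a number. It was 53.8 between the WT libraries and 36.7 between the KO libraries. The replicate 1 minus 2 differences in WT and in the KO correlated across 13668 genes (r = 0.774; genes are not independent replicates), which with 2 numbers is a hint from the data, not the design. With a replicate block, edgeR called 1500 genes, 789 (5.77%) higher and 711 (5.2%) lower, on 1 residual degree of freedom. It then called 6 oestrogen-responsive genes (Myc lower, Cxcl12, Fos, Tgm2, Slc9a3r1 and Egr1 higher), 4 progesterone-responsive (Hoxa11 lower, Hand2, Wnt4 and Nr2f2 higher), 5 glucocorticoid-responsive (Angptl4 lower, Dusp1, Ddit4, Cebpd and Klf15 higher), 1 chaperone (Hsp90aa1 higher), 2 related receptors (Nr2f2 and Vdr, both higher) and 3 of steroid metabolism (Hsd17b7 and Akr1c14 lower, Cyp1b1 higher), and 0 coregulators.

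With a size of 0.3 in place of 0.5, chosen after seeing the data, 695 of all genes, 3 oestrogen-responsive, 2 progesterone-responsive, 4 glucocorticoid-responsive genes and 1 coregulator were beyond it in both numbers. With a size of 1 these were 27 of the 11556 genes (2 higher, 25 lower) and 1 of 19 glucocorticoid-responsive genes (lower). With 2 libraries a group and low counts for Esr2, Gper1 and Nr3c2, differences of these 3 genes were poorly resolved.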

Other observations

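Between the replicate numbers, a contrast that did not enter the choice of the 8 genes, the share of list genes called varied by list. If the WT and KO libraries of a number share an embryo, which was not stated, the p-values here do not measure spread between embryos. It was 23.8% of 21 glucocorticoid-responsive genes, 21.2% of 33 coregulators, 16.7% of 18 chaperones and 26.3% of 19 genes of steroid metabolism. Among 34 oestrogen-responsive genes, 17 (50.0%) were called between replicates 1 and 2 by edgeR, 7 higher in replicate 1 and 10 higher in replicate 2, where 26.2% of all genes tested were called; DESeq2 called 9 of them, and the list was not matched to all genes on expression level. The genes named here were chosen after their values were seen. Igf1, insulin-like growth factor 1, was higher in replicate 1, with 3925 (WT) and 3431 (KO) counts against 2250 (WT) and 2502 (KO) in replicate 2 (log2 difference 0.79, SE 0.08, edgeR adjusted p = 1.15e-19). Cxcl12 was higher in replicate 2 (log2 difference -0.78, SE 0.09, edgeR adjusted p = 4e-15). Among 15 progesterone-responsive genes 7 (46.7%) were called by edgeR and 3 by DESeq2, 6 of the 7 higher in replicate 2, among them Bmp2, with 20 (WT) and 22 (KO) counts in replicate 1 and 82 (WT) and 65 (KO) in replicate 2.

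Of 14 related receptors, 5 (35.7%) were called between the replicate numbers by edgeR and 2 (Nr2f6 and Nr2f2) by DESeq2. The 5 (Nenf, Nr2f6, Nr2f1, Nr2f2 and Paqr6) were all higher in replicate 2, by 0.23 to 1.14 on the log2 scale. Por, the electron donor of steroid-metabolizing cytochromes, was higher in replicate 1 (log2 difference 0.79, SE 0.08, edgeR adjusted p = 5.49e-19). Sex and macrophage and smooth muscle markers moved with the replicate number too, and their part in these differences was not tested.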
